A study of Xenopus laevis with 9 samples.

Results

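The nuclear genes of the mitochondrial ribosome, of protein import into mitochondria and of the inner-membrane carriers were followed in tadpole tails of the frog Xenopus laevis during exposure to thyroid hormone. Members were all probe sets whose platform gene symbol, without its homeolog suffix, begins with mrpl, mrps, timm, tomm or slc25a followed by a number. There were 86 such probe sets for 81 genes, of 15491 probe sets on the array. They comprised 25 mrpl, 16 mrps, 13 timm, 5 tomm and 27 slc25a probe sets. Of the 86, 75 passed a level filter (at or above the median of the array in at least 3 of 9 arrays) and were tested, and 11 did not pass.

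Affymetrix arrays, where several short oligonucleotides together (a probe set) report 1 transcript, measured 3 groups of whole larvae exposed in their water. The vehicle group was sampled after 48 h, and the hormone groups after 6 h and 48 h in 20 nM triiodothyronine (T3), the active thyroid hormone. Each group had 3 arrays, each from the pooled tails of 3 animals at stage 54, kept 2 to a 500 ml container at 20 C. The labels name no strain or genotype, and the source names give a range of stages that ends at 54. Because vehicle tails were taken at 48 h alone, T3 6 h differed from vehicle in hormone and in time in the container, and these cannot be told apart. T3 48 h differed from T3 6 h in time in the hormone together with time in the container, and these cannot be told apart either. The labels do not say whether pools came from separate clutches, and p-values therefore reflect only how far the pools differ.

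The mitochondrial ribosome translates the few mRNAs of the mitochondrial genome, which encode membrane subunits of the respiratory chain and the ATP synthase. Its proteins are encoded in the nucleus (symbols mrpl for the large and mrps for the small subunit) and must be imported. Import runs through the TOM complex of the outer membrane (tomm genes) and the TIM complexes of the inner membrane (timm genes), among them small chaperones that carry hydrophobic proteins across the space between the membranes. The SLC25 carriers (slc25a genes) are inner-membrane proteins that exchange nucleotides, phosphate, carboxylic acids, amino acids and cofactors with the cytosol. The tadpole tail is rich in striated muscle, a tissue with many mitochondria, and is resorbed under thyroid hormone at metamorphosis.

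Values are log2 intensities over the median of each array, so 0 is the array median. Within groups, arrays correlated across the 8123 tested probe sets at r = 0.966 to 0.988. On the first principal component, with 47.2% of the variance, vehicle and T3 6 h arrays lay between -16.6 and -11.3, T3 48 h arrays 2 and 3 at 38.8 and 30.6, and T3 48 h array 1 at 15.2. That array also stood apart in liver markers, which should be absent from tail. Transthyretin ttr.L was at 2.49 on T3 48 h array 1 and at -2.40 and -2.38 on arrays 2 and 3, and was at -2.38 ± 0.13 (SD, n = 3) in vehicle. The summed intensity of the 6 liver probe sets was 1.26 to 1.44 in vehicle, 1.41 to 1.47 at 6 h and 1.36 to 18.1 at 48 h. Apolipoprotein apoa1.S was high on T3 48 h array 3 as well, at 3.01, beside 2.60 on array 1. All 21 muscle probe sets passed the filter, and their summed intensity was 6420 to 6610 in vehicle, 6740 to 7150 at 6 h and 6090 to 7030 at 48 h. The counts below are therefore also given without T3 48 h array 1.

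After 48 h of T3 most of the mitochondrial ribosome, import and carrier probe sets lay lower than in vehicle, among them 38 of 39 for ribosomal proteins. Of the 75 tested probe sets, 66 had a negative log2 change against vehicle, where 55.6% of all tested probe sets had one. The members' median was -0.33, beside -0.05 over all 8123 tested probe sets. Changes count as called at a limma p under 0.05 after Benjamini-Hochberg adjustment over all tested probe sets. By this rule 11 members fell and 0 rose, where 6.04% of all tested probe sets fell, 4.94% rose and 11.0% were called in either direction. In 43 members, all 3 arrays at 48 h lay below all 3 vehicle arrays, and in 0 members above them. The same separation was seen in 19.7% (lower) and 12.9% (higher) of all tested probe sets. Fewer cells of a type and less RNA per cell cannot be told apart in whole tails.

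**Figure D1:**
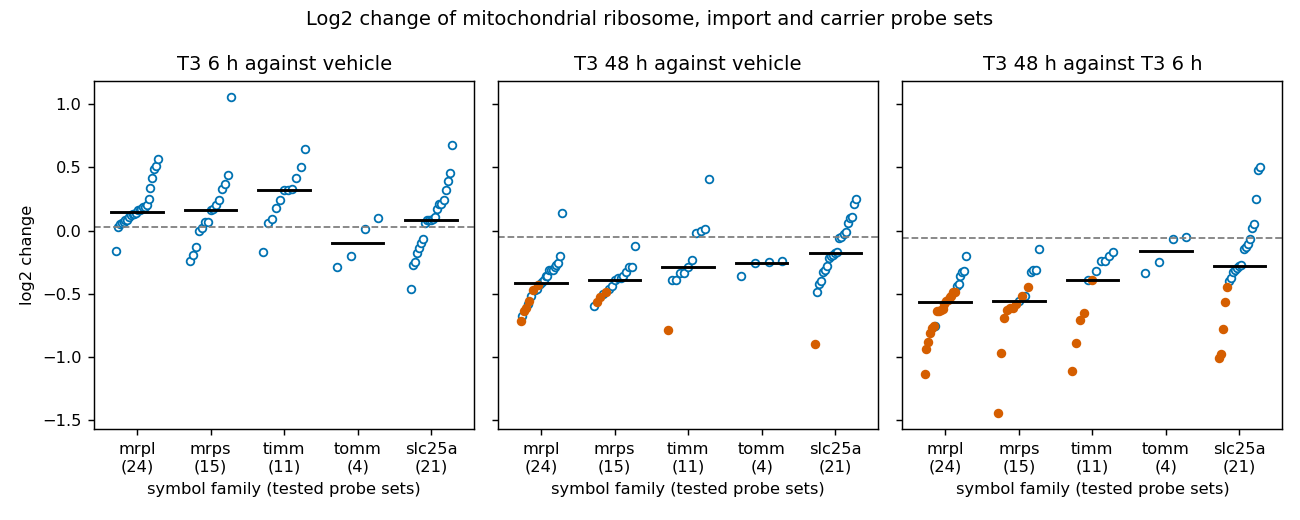
Each point is a tested probe set, placed by symbol family (x axis, number tested in brackets) and by its log2 change (y axis) in the 3 comparisons. Filled orange points passed an adjusted p of 0.05 in limma, black bars are family medians and the dashed line is the median of all 8123 tested probe sets. In the middle panel 38 of 39 mrpl and mrps points lie below 0, and in the right panel 39 of 39 do.

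In the large subunit, 23 of 24 tested probe sets had a negative change at 48 h against vehicle, with a median of -0.41. Of the 24, 6 fell, where 6.04% of all tested probe sets fell. The 6 were mrpl2.L, mrpl9.S, mrpl15.L, mrpl16.S, mrpl41.L and mrpl41.S. mrpl41.S was at 3.11, 3.48 and 3.07 in vehicle, at 3.91, 3.31 and 3.71 at 6 h and at 2.68, 2.52 and 2.31 at 48 h. All 3 values at 48 h lay below every other value of the probe set. Against vehicle it fell 1.64-fold, a log2 change of -0.72 with an SE of 0.18 (3 arrays per group, limma adjusted p = 0.0357), and ± after a log2 change is its SE in what follows. The other homeolog, mrpl41.L, was at 3.52, 3.75 and 3.59 in vehicle, at 3.91, 3.37 and 3.69 at 6 h and at 3.04, 2.97 and 3.03 at 48 h. It fell 1.52-fold at 48 h (log2 -0.61 ± 0.15, adjusted p = 0.0317). Xenopus laevis carries many genes as such pairs, with .L or .S in the symbol, and oligonucleotides made for one can bind the other, so the pair is not an independent measurement.

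mrpl2.L and mrpl16.S encode counterparts of bacterial proteins that sit near the catalytic centre of the ribosome. mrpl2.L was at 2.66, 2.76 and 2.59 in vehicle, at 3.04, 2.44 and 2.91 at 6 h and at 2.20, 1.86 and 2.03 at 48 h. The groups at 48 h and in vehicle did not overlap, and the fall was 1.56-fold (log2 -0.64 ± 0.17, adjusted p = 0.0386 in limma). mrpl16.S was at 4.12, 4.14 and 4.22 in vehicle, at 4.49, 4.10 and 4.40 at 6 h and at 3.64, 3.76 and 3.66 at 48 h. It fell 1.38-fold (log2 -0.47 ± 0.13, adjusted p = 0.0421).

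mrpl15.L, the counterpart of a bacterial large-subunit protein, was at 4.28, 4.54 and 4.50 in vehicle, at 4.88, 4.43 and 4.75 at 6 h and at 3.80, 3.98 and 3.85 at 48 h. It fell 1.48-fold against vehicle (log2 -0.56 ± 0.14, adjusted p = 0.0352 in limma). mrpl9.S, also with a bacterial counterpart, lay above vehicle at 6 h. It was at 3.85, 3.72 and 3.75 in vehicle, at 4.35, 4.14 and 4.35 at 6 h and at 3.41, 3.33 and 3.29 at 48 h. None of its 3 groups overlapped. Its log2 change was 0.51 ± 0.12 at 6 h, which did not pass (adjusted p = 0.101), and -0.43 ± 0.12 at 48 h, which did (adjusted p = 0.0406).

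The exception in the large subunit was mrpl28.L, with a log2 change of 0.14 ± 0.28 at 48 h (adjusted p = 0.764 in limma). It was at 1.84, 1.92 and 2.11 in vehicle, and at 1.35, 2.46 and 2.49 at 48 h, so that T3 48 h array 1 lay below all vehicle arrays and arrays 2 and 3 above them. Without T3 48 h array 1 its change was 0.52 (adjusted p = 0.0531), and without array 2 or array 3 it was just below 0, at -0.05 at the lowest. The other extremes of the family were mrpl23.S, at -0.68 ± 0.26 (adjusted p = 0.113; -0.41 without vehicle array 2 and -0.91 without vehicle array 3), mrpl37.L at -0.20 and mrpl45.L at -0.26. Large-subunit genes whose proteins have a counterpart in bacteria (numbers up to 36) had a median of -0.43 over 13 tested probe sets. Those without (numbers above 36) had one of -0.36 over 11. This division was made after the values had been seen. Of the first 4 fell, and of the second 2, where 6.04% of all tested probe sets fell.

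All 15 tested mrps probe sets had a negative change at 48 h against vehicle, between -0.60 and -0.12 with a median of -0.39. Of the 15, 3 fell, where 6.04% of all tested probe sets fell. The 3 were mrps18a.L, mrps30.S and mrps35.L. In mammals the proteins of mrps18a and mrps30 are known to sit in the large subunit despite their names, so the symbol families do not match the subunits exactly. mrps18a.L was at 4.09, 4.40 and 4.29 in vehicle, at 4.44, 4.27 and 4.29 at 6 h and at 3.71, 3.60 and 3.87 at 48 h. It fell 1.45-fold (log2 -0.53 ± 0.13, adjusted p = 0.0309 in limma). mrps35.L, in the small subunit, was at 3.09, 3.52 and 3.49 in vehicle, at 3.45, 3.46 and 3.23 at 6 h and at 2.86, 2.75 and 2.79 at 48 h. Vehicle and 6 h overlapped, and the values at 48 h lay apart below both (log2 -0.57 ± 0.14 against vehicle, adjusted p = 0.0356).

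The homeologs of mrps30 had changes of opposite sign at 6 h, neither called (0.20 for mrps30.S and -0.24 for mrps30.L). mrps30.S was at 1.66, 2.04 and 1.97 in vehicle, at 2.00, 2.20 and 2.06 at 6 h and at 1.41, 1.32 and 1.46 at 48 h. It fell at 48 h against vehicle (log2 -0.49 ± 0.13, adjusted p = 0.0429 in limma) and against 6 h (-0.69 ± 0.13, adjusted p = 0.00718). mrps30.L was at 3.21, 3.34 and 3.22 in vehicle, at 3.06, 3.03 and 2.95 at 6 h and at 3.01, 2.69 and 2.89 at 48 h, and passed neither test (-0.39 ± 0.12, adjusted p = 0.0666, and -0.15 ± 0.12, adjusted p = 0.414). The difference between the homeologs was not tested. The remaining named mrps members were mrps24.S at -0.60 ± 0.18 (adjusted p = 0.0606), mrps7.L at -0.12 in one probe set (-0.33 in the other), and mrps2.S and mrps33.L at -0.29 each.

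**Figure D2:**
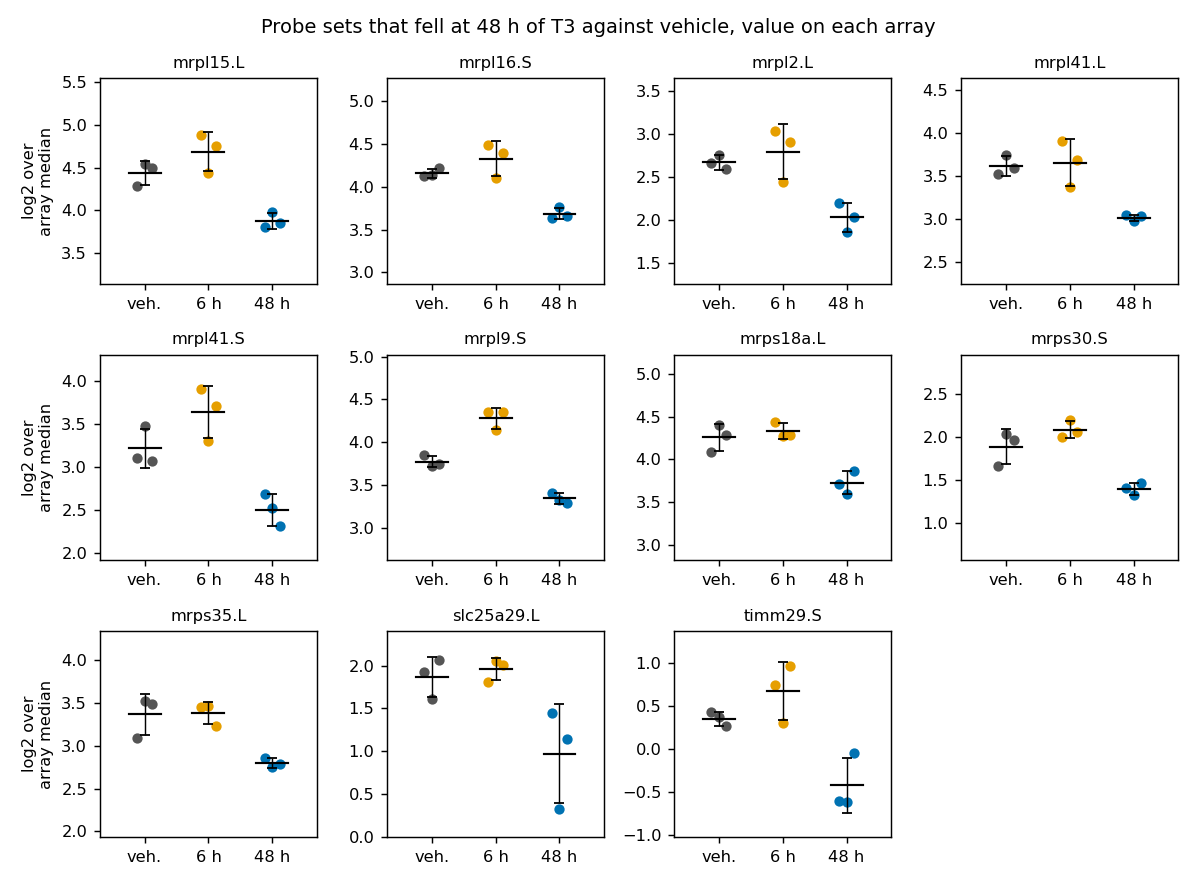
Each panel shows 1 of the 11 probe sets that fell at 48 h against vehicle, with the log2 intensity over the array median (y axis, a span of the same size in every panel) on the 9 arrays by group (veh., vehicle). Points are arrays, bars are means and whiskers are SD (n = 3). In every panel the 3 values at 48 h lie below all 3 vehicle values.

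Among import genes 1 probe set fell at 48 h against vehicle, timm29.S, for a subunit of the inner-membrane complex that inserts carriers. It was 1 of 11 tested timm probe sets, where 6.04% of all tested probe sets fell. timm29.S was at 0.43, 0.37 and 0.27 in vehicle, at 0.75, 0.31 and 0.97 at 6 h and at -0.60, -0.62 and -0.05 at 48 h. All 3 values at 48 h lay below the array median, where the fold depends on the background correction. Its fall was 1.72-fold (log2 -0.79 ± 0.20, adjusted p = 0.0357 in limma). The homeolog timm29.L was at 2.99 ± 0.11 in vehicle, 3.05 ± 0.18 at 6 h and 2.66 ± 0.05 at 48 h (SD, n = 3), a change of -0.34 ± 0.13 that did not pass (adjusted p = 0.117).

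The tested probe sets of the presequence translocase, timm23.L, timm44.S and timm21.L, gave no call at 48 h against vehicle. Not every subunit of it had a tested probe set. timm21.L was at -0.34 ± 0.13 (adjusted p = 0.123 in limma), with all 48 h values below those of vehicle. The channel subunit timm23.L was at 2.26 ± 0.16 in vehicle, 2.51 ± 0.12 at 6 h and 2.27 ± 0.19 at 48 h (SD, n = 3), a change at 48 h of 0.00 ± 0.15 (adjusted p = 0.997 in limma). timm44.S, which ties the import motor to that channel, was the highest of the timm family at 48 h. It was at 0.65, 0.86 and 0.74 in vehicle, at 1.65, 1.12 and 1.43 at 6 h and at 0.75, 1.35 and 1.38 at 48 h. Its changes were 0.65 ± 0.19 at 6 h (adjusted p = 0.164) and 0.41 ± 0.19 at 48 h (adjusted p = 0.182). T3 48 h array 1 lay within the vehicle range. Without that array the change was 0.61 and passed (adjusted p = 0.0276). The receptor subunit timm50.L was below the filter, at -0.76, -0.66 and -0.92 in vehicle, 0.27, -0.21 and -0.13 at 6 h and -0.64, -0.89 and -0.71 at 48 h. All 3 values at 6 h lay above those of both other groups. In the fit without a filter its change was 0.76 ± 0.15 at 6 h (adjusted p = 0.140), 0.03 ± 0.15 at 48 h, and -0.73 ± 0.15 between them, which passed (adjusted p = 0.018).

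The small chaperones of the intermembrane space had their highest values at 6 h. timm13.L was at 3.60, 3.58 and 3.54 in vehicle, at 4.03, 3.77 and 3.88 at 6 h and at 3.23, 3.09 and 3.22 at 48 h, with no overlap between any 2 groups. Against vehicle it was at 0.32 ± 0.12 at 6 h (adjusted p = 0.237 in limma) and -0.39 ± 0.12 at 48 h (adjusted p = 0.0568), and neither passed. Its homeolog timm13.S was at 4.01, 3.96 and 3.93 in vehicle, at 4.31, 4.65 and 4.20 at 6 h and at 3.93, 3.61 and 3.66 at 48 h. timm10.S was at 0.69 ± 0.19 in vehicle, 1.18 ± 0.47 at 6 h and 0.30 ± 0.12 at 48 h (SD, n = 3). timm8b.L was at 3.95 ± 0.13, 4.04 ± 0.05 and 3.65 ± 0.11, and timm8b.S at -0.18 ± 0.13, 0.15 ± 0.21 and -0.17 ± 0.19.

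Of the 4 tested tomm probe sets, 0 were called at 48 h against vehicle, where 11.0% of all tested probe sets were. All 4 had a negative change there, between -0.36 and -0.24. The receptor tomm20 was at 4.89, 5.0 and 5.08 in vehicle, at 4.87, 4.72 and 4.77 at 6 h and at 4.74, 4.71 and 4.75 at 48 h. Both hormone groups lay below vehicle without overlap, yet the change of -0.26 ± 0.10 at 48 h did not pass (adjusted p = 0.130 in limma). The pore protein tomm40 was at -0.36 ± 0.14 for tomm40.S (adjusted p = 0.109) and -0.24 ± 0.18 for tomm40.L (adjusted p = 0.389). The receptor tomm70.S was at -0.25 ± 0.15 (adjusted p = 0.307). tomm22.L lay far below the array median on all 9 arrays, between -2.75 and -2.55, and its level is not resolved here.

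The carriers differed among themselves. Of 21 tested slc25a probe sets, 16 had a negative and 5 a positive change at 48 h against vehicle, with a median of -0.18, and 1 fell. In this comparison 6.04% of all tested probe sets fell. slc25a29.L, a carrier of basic amino acids in mammals, was at 1.93, 1.61 and 2.07 in vehicle, at 1.81, 2.05 and 2.01 at 6 h and at 1.45, 0.33 and 1.14 at 48 h. The 48 h values lay below the others but were widely spread, with T3 48 h array 2 lowest. Its fall was 1.87-fold (log2 -0.90 ± 0.25, adjusted p = 0.0462 in limma). Without T3 48 h array 2 the change was -0.58 and did not pass (adjusted p = 0.101).

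The carriers that serve oxidative phosphorylation showed small changes. The ADP/ATP carrier of muscle, slc25a4.L, was at 7.79, 8.16 and 8.15 in vehicle, at 8.29, 8.03 and 8.09 at 6 h and at 7.90, 8.02 and 7.68 at 48 h. The groups overlapped between vehicle and 48 h, with a change of -0.17 ± 0.12 (adjusted p = 0.377 in limma). A further ADP/ATP carrier, slc25a5.L, was at 7.79, 7.55 and 7.62 in vehicle, at 7.76, 7.97 and 7.86 at 6 h and at 7.79, 7.60 and 7.76 at 48 h, a change at 48 h of 0.06 ± 0.09 (adjusted p = 0.677). The phosphate carrier slc25a3.L was at 7.19, 7.31 and 7.41 in vehicle, at 7.24, 7.10 and 7.26 at 6 h and at 7.21, 7.34 and 7.22 at 48 h, a change of -0.05 ± 0.08 (adjusted p = 0.736). A second probe set of slc25a3.L lay below the array median on every array, at -1.21 to -0.77, with a change of 0.04 ± 0.13. For these 3 tested probe sets the differences between vehicle and 48 h were no larger than the SD among arrays of a group.

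None of the further carriers named next passed at 48 h against vehicle in the fit of all 9 arrays. The citrate carrier slc25a1.L was at 0.11 ± 0.13 (adjusted p = 0.618 in limma), and the aspartate-glutamate carriers slc25a12.L and slc25a13.L were at -0.22 ± 0.20 and 0.10 ± 0.22. The carnitine-acylcarnitine carrier slc25a20.L was at 4.10, 4.43 and 4.18 in vehicle, at 4.40, 3.80 and 4.09 at 6 h and at 3.79, 3.82 and 3.84 at 48 h. Its 48 h values lay below vehicle without overlap (-0.42 ± 0.16, adjusted p = 0.112), and slc25a20.S, below the filter, was at 0.22 ± 0.13. The oxoglutarate carrier slc25a11.L was at -0.49 ± 0.18 (adjusted p = 0.0968), and at -0.63 (adjusted p = 0.0302) without T3 48 h array 1. Its homeolog slc25a11.S was at -0.40 ± 0.23 (adjusted p = 0.278), with overlap between vehicle and 48 h. The calcium-regulated ATP-Mg/phosphate carrier slc25a25.L was at 0.25 ± 0.21 and slc25a39.L, for a glutathione transporter in mammals, at 0.21 ± 0.17, the highest 2 of the tested slc25a probe sets at 48 h.

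**Figure D3:**
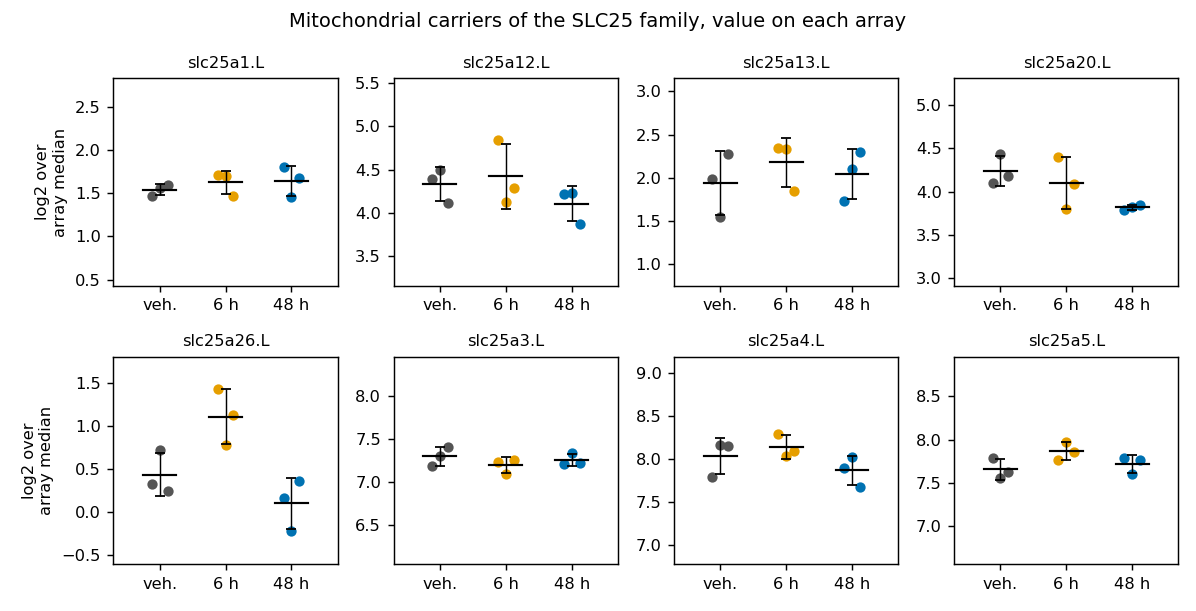
Log2 intensity over the array median (y axis, a span of the same size in every panel) of 8 SLC25 carriers on the 9 arrays by group (veh., vehicle). Points are arrays, bars are means and whiskers are SD (n = 3). The ADP/ATP carriers slc25a4.L and slc25a5.L and the phosphate carrier slc25a3.L overlap between vehicle and 48 h, and slc25a26.L lies highest at 6 h.

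The 11 calls at 48 h against vehicle rested on few arrays. Without T3 48 h array 1, 23 members were called, 22 lower and 1 higher, and all of the 11 were among them. With T3 48 h array 2 left out, or either of vehicle arrays 2 and 3, 0 were called, and without vehicle array 1 or T3 48 h array 3 the counts were 2 and 1. Leaving out T3 6 h array 1, 2 or 3, which enter through the shared spread, gave 5, 10 and 2. Calls over all 8123 tested probe sets, 892 in the main fit, moved the same way. They were 1912 without T3 48 h array 1, and 291 and 285 without T3 48 h arrays 2 and 3. Without vehicle arrays 1, 2 and 3 they were 256, 305 and 376. Without T3 6 h arrays 1, 2 and 3 they were 675, 814 and 624. No member of the 11 was called in each of the 9 fits. The direction moved less: the members' median was between -0.38 and -0.31 and 64 to 68 of 75 were negative across the 9 fits.

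After 6 h of T3 the members leaned the other way. Of 75 tested probe sets 61 had a positive change against vehicle, with a median of 0.13 beside 0.03 over all tested probe sets, of which 54.3% were positive. Across the 9 fits without 1 array, 50 to 61 of 75 were positive and the median was 0.09 to 0.19. For the mrpl and mrps probe sets the same fits gave 27 to 35 of 39 positive, with a median of 0.05 to 0.26. Of the members 0 were called in limma, where 0.222% of all tested probe sets were (0.172% higher, 0.0492% lower). An unadjusted p under 0.05 was found in 13 of the 75 members and in 1270 of all 8123 tested probe sets. In 14 members all 3 values at 6 h lay above all vehicle values and in 3 below them, where 14.1% and 10.5% of all tested probe sets did so. The share above, 14 of 75, is thus near that of all probe sets. Red blood cell markers also lay higher at 6 h, with 5 of 5 tested probe sets positive at a median of 1.07. Of these 4 lay above vehicle without overlap and 0 were called. Muscle markers were positive in 15 of 21 tested probe sets (median 0.09, 5 higher without overlap). Epidermal markers were positive in 5 of 7, notochord and cartilage markers in 4 of 4 and leukocyte markers in 2 of 6, and 0 were called. The part of these cell types in the members' values was not tested.

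The largest change at 6 h was that of mrps17.L, for a small-subunit protein with a bacterial counterpart. It was at 1.05, 1.35 and 1.42 in vehicle, at 2.06, 2.68 and 2.28 at 6 h and at 0.68, 0.79 and 1.21 at 48 h. The 6 h values lay above those of both other groups, and 48 h and vehicle overlapped. Its change of 1.06 ± 0.20 at 6 h missed the threshold (adjusted p = 0.0588 in limma). It passed without T3 48 h array 1 (adjusted p = 0.0375), with array weights (0.0129) and in a fit of both groups alone (0.0482). That was 1 of the 9 fits without 1 array, where its adjusted p reached 0.243. It did not pass without a filter, with the stricter filter, under quantile normalization or centring, with the replicate block or without a trend. With array weights 547 of all tested probe sets were called at 6 h, beside 18 in the main fit. Other high values at 6 h were slc25a26.L at 0.68 ± 0.21, timm44.S at 0.65 ± 0.19, mrpl3.S at 0.57 ± 0.18 and mrpl53.L at 0.49 ± 0.13, none of them called.

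**Figure D4:**
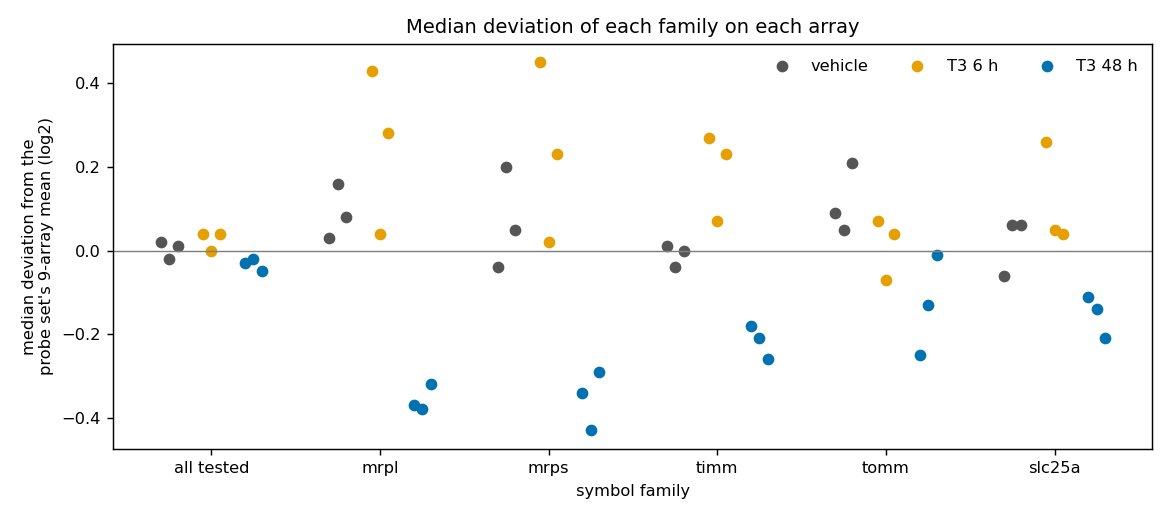
For each array, the median over a family's tested probe sets of their deviation from the 9-array mean (y axis, log2), by family (x axis) and group (colour, 3 arrays each). The mrpl medians lie between 0.03 and 0.16 in vehicle, 0.04 and 0.43 at 6 h and -0.38 and -0.32 at 48 h, while all tested probe sets stay between -0.05 and 0.04.

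By array, the transcripts of the ribosomal proteins were lower on every T3 48 h array and unevenly higher at 6 h. The median deviation of the mrps probe sets from their 9-array mean was -0.04, 0.20 and 0.05 in vehicle, 0.45, 0.02 and 0.23 at 6 h and -0.34, -0.43 and -0.29 at 48 h. T3 6 h array 2 thus lay within the vehicle range for both ribosomal families, and T3 48 h array 1, with its liver transcripts, lay with the other T3 48 h arrays. The timm medians followed the same order, at 0.27, 0.07 and 0.23 at 6 h and -0.18, -0.21 and -0.26 at 48 h, against -0.04 to 0.01 in vehicle. For tomm the groups at 6 h and 48 h were closer, at -0.07 to 0.07 and -0.25 to -0.01.

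Between 6 h and 48 h of T3, 70 of 75 members were lower at 48 h, and 36 fell in limma, with 0 higher. Of all tested probe sets 57.1% had a negative change, 11.9% fell, 7.51% rose and 19.4% were called in either direction. The members' median was -0.45, beside -0.06. The calls held 17 of 24 large-subunit, 9 of 15 mrps, 5 of 11 timm, 0 of 4 tomm and 5 of 21 slc25a probe sets. In 47 members all 48 h values lay below all 6 h values and in 2 above them, where 23.0% and 13.8% of all tested probe sets did so. Without T3 48 h array 1, 33 were called, of which 32 were among the 36. The count was 18 without T3 6 h array 1 (17 lower and 1 higher, slc25a39.L) and also 18, all lower, without T3 6 h array 3. These 36 include all 11 called against vehicle, and the comparisons share the T3 48 h arrays.

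mrps17.L had the largest difference, 2.72-fold lower at 48 h than at 6 h (log2 -1.45 ± 0.20, adjusted p = 0.00154 in limma). The lowest adjusted p was that of mrpl9.S, at 0.00114, with a fall of 1.91-fold (log2 -0.94 ± 0.12). mrpl41.S fell 2.21-fold (log2 -1.14 ± 0.18, adjusted p = 0.00351) and timm29.S 2.15-fold (log2 -1.11 ± 0.20, adjusted p = 0.00579). Of these 36, 14 kept their call in all 9 fits without 1 array. They were mrps17.L, mrpl41.S, timm29.S, slc25a26.L, mrps24.S, mrpl9.S, mrpl3.S, mrpl15.L, mrpl53.L, timm13.L, mrps30.S, timm13.S, mrpl16.S and mrps18a.L.

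Of the ribosomal genes that were not called against vehicle, mrpl3.S, for a core protein of the large subunit, was at 0.65, 0.67 and 1.08 in vehicle, at 1.5, 1.28 and 1.33 at 6 h and at 0.21, 0.44 and 0.82 at 48 h. Its 6 h values lay above all others (-0.88 ± 0.18 from 6 h to 48 h, adjusted p = 0.00884 in limma). mrps24.S was at 2.17, 2.60 and 2.09 in vehicle, at 2.77, 2.31 and 2.89 at 6 h and at 1.72, 1.61 and 1.74 at 48 h, a fall of 1.96-fold from 6 h (log2 -0.97 ± 0.18, adjusted p = 0.00655). mrpl53.L was at 1.52, 1.58 and 1.61, then at 2.27, 1.82 and 2.08, and at 48 h at 1.21, 1.34 and 1.33, with no overlap between any 2 groups. It fell from 6 h by 0.76 on the log2 scale (adjusted p = 0.00478).

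Smaller falls from 6 h to 48 h were seen in mrpl12.L (log2 -0.52), whose protein forms part of the stalk that binds translation factors, and in mrpl11.S (-0.55), at the base of that stalk. A second probe set of mrpl11.S was at -0.42 and did not pass (adjusted p = 0.0823 in limma), and one below the filter was at -0.33. The others were mrpl18.L (-0.56), mrpl21.L (-0.58), mrpl24.L (-0.62), mrpl39.L (-0.63), mrpl51.L (-0.53), mrps15.L (-0.63) and mrps33.L (-0.61), with adjusted p between 0.0126 and 0.0412. mrpl44.S, mrpl48.S, mrps2.S and mrps26.L were at -0.49, -0.49, -0.52 and -0.45.

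Among carriers 5 of 21 tested probe sets fell from 6 h to 48 h, where 11.9% of all tested probe sets fell. slc25a26.L, the S-adenosylmethionine carrier, was at 0.33, 0.72 and 0.25 in vehicle, at 1.42, 0.78 and 1.12 at 6 h and at 0.16, -0.22 and 0.36 at 48 h. Its 6 h values lay above both other groups, which overlapped, and it fell 2.01-fold from 6 h to 48 h (log2 -1.01 ± 0.21, adjusted p = 0.0097 in limma). slc25a29.L fell by 0.98 on the log2 scale (adjusted p = 0.0226), slc25a17.S by 0.78 (0.0226), slc25a46.S by 0.57 (0.0214) and slc25a28.L by 0.45 (0.0334). slc25a17 encodes a carrier of the peroxisome and slc25a46 one of the outer mitochondrial membrane in mammals, so these family members do not sit in the inner membrane. slc25a28 encodes mitoferrin 2, an iron carrier. Its homeolog slc25a28.S was at -0.38 ± 0.14 (adjusted p = 0.0868). The folate carrier slc25a32.L lay below the filter and was called in the fit without one (-0.89 ± 0.23, adjusted p = 0.0427), with values at 48 h between -1.96 and -1.32.

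Among the small chaperones timm10.S fell 1.85-fold from 6 h to 48 h (log2 -0.89 ± 0.21, adjusted p = 0.0179 in limma). timm13.L and timm13.S fell by 0.71 (adjusted p = 0.00378) and 0.65 (0.0128) on the log2 scale, and timm8b.L by 0.39 (0.0481). timm8b.S (-0.32), timm23.L (-0.24), timm44.S (-0.24) and timm29.L (-0.39, adjusted p = 0.0588) did not pass. slc25a25.L and slc25a39.L were the members with all values at 48 h above those at 6 h, at 0.50 ± 0.21 and 0.48 ± 0.17, and neither passed (adjusted p = 0.127 and 0.0684). Without T3 6 h array 1, slc25a39.L was at 0.64 and passed (adjusted p = 0.0335 in limma).

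Other genes of mitochondrial translation, import and transport were read from 5 lists, each beside the share of all tested probe sets called in the same comparison. That share was 11.0% at 48 h against vehicle (6.04% lower) and 19.4% from 6 h to 48 h (11.9% lower). At 6 h 0 members of any of the 5 were called. Of 3 tested genes of ribosome assembly outside the symbol families, the regulator mterf3.S fell at 48 h (log2 -0.80, adjusted p = 0.0244 in limma), and it and the GTPase gene mtg2.L fell from 6 h to 48 h (-1.10 and -0.89). Of 5 translation factors and tRNA synthetases 1 fell at 48 h against vehicle, the elongation factor tsfm.L (-0.75, adjusted p = 0.0203), and 4 fell from 6 h, tsfm.L, cars2.L, mtif3.L and rars2.S. Both lists had negative changes throughout at 48 h, with medians of -0.56 and -0.44.

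Of 38 tested probe sets for import, processing and assembly, 4 fell at 48 h against vehicle, with a median of -0.31. They were a probe set of the processing peptidase gene pmpca.S (-0.75), a probe set of the protease gene clpp.L (-0.67), the prohibitin phb.L (-0.62) and the import motor gene dnajc19.L (-0.50). From 6 h to 48 h 14 fell, among them chchd4.S (-1.01), of the disulfide relay that folds the small chaperones, and a probe set of the chaperonin gene hspe1.L (-1.0). Of 8 tested probe sets for mitochondrial DNA, transcription and biogenesis, the polymerase subunit polg2.L (-1.0, adjusted p = 0.0178 in limma) and the transcription and packaging factor tfam.L (-0.48, adjusted p = 0.0393) fell at 48 h against vehicle, and 4 fell from 6 h, led by ssbp1.L (-1.24). The nuclear receptor gene esrra.L, for a regulator of mitochondrial genes, was at 0.82 at 6 h, not called, and fell from 6 h to 48 h (-0.79, adjusted p = 0.00676).

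Of 19 tested probe sets for other mitochondrial transport, 6 fell at 48 h against vehicle, with a median of -0.24. These were the calcium uniporter mcu.L (-1.02, adjusted p = 0.0243 in limma), the carnitine palmitoyltransferase cpt1b.L (-0.74), a probe set of the uniporter subunit smdt1.S (-0.48), the pyruvate carrier subunits mpc1.S (-0.47) and mpc2.S (-0.35), and a probe set of vdac1.S (-0.44), a channel of the outer membrane. From 6 h to 48 h 7 fell. In this list no probe set rose in any comparison.

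Among markers of the tail's cell types, those of notochord and cartilage fell at 48 h. Of all tested probe sets 11.0% were called at 48 h against vehicle, with 6.04% lower, and the small marker lists are read beside that. Of 21 muscle probe sets 0 were called against vehicle, with a median of 0.03. Of 7 tested epidermal probe sets 1 fell (krt19.L, -0.59) and their median was -0.59. The summed intensity of the 11 epidermal probe sets was 134 to 202 in vehicle, 178 to 218 at 6 h and 90.1 to 142 at 48 h. All 4 tested notochord and cartilage probe sets fell (median -1.65), with sums over 7 probe sets of 23.9 to 38.1 in vehicle, 34.3 to 38.9 at 6 h and 7.63 to 21.5 at 48 h. Of 5 tested erythroid and 6 leukocyte probe sets 0 were called, with sums in vehicle, at 6 h and at 48 h of 306 to 373, 430 to 774 and 339 to 596, and of 40.8 to 51.0, 43.4 to 46.5 and 35 to 84.8. The leukocyte median at 48 h was 0.15, with changes between -0.84 and 1.28. The erythroid one was 0.52, with changes between 0.1 and 1.07. From 6 h to 48 h 11.9% of all tested probe sets fell. Of the 21 muscle probe sets 15 were negative in that comparison and 1 fell, with a median of -0.07. There 2 of 7 epidermal, 4 of 4 notochord and cartilage, 0 of 5 erythroid and 0 of 6 leukocyte probe sets fell. No marker was listed at 0. Their part in the falls of the mitochondrial genes was not tested.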

How the data were processed

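For each probe set the authors deposited 1 linear intensity on each array, made with GCRMA, per the submitters' processing notes; its version and other steps are not given in the sources used here. Each of the 9 deposited columns has a median of 1. Here log2 was taken, 120 control probe sets were left out of 15611, and probe sets at or above log2 0 in at least 3 arrays were kept, 8123 of 15491. Detection calls were not used here; precision is bounded by having 3 arrays per group. One limma 3.58.1 model in R 4.3.3 held all 9 arrays (group as factor, eBayes with intensity trend, two-sided, Benjamini-Hochberg over all 8123, threshold 0.05). The procedure was also run on simulated data, with independent noise per probe set. The changes planted there were larger than those of the members called at 48 h against vehicle. That run therefore does not show how well changes of the members' size are recovered. Symbols came from the platform annotation (9304 probe sets with 1 gene, 195 with several, 5992 with none listed); no probe set with several genes met the symbol rule. Sequences and genomic positions were not used here.

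The members, lists and named genes were chosen with earlier results of these data known. Named were called members (at most 30), the 3 highest and 3 lowest at 48 h per family, a set of carriers and translocase genes, homeologs of called members and up to 5 called genes per further list. Others named (mrpl44.S, mrpl48.S, mrps26.L, slc25a11.S, timm21.L, ttr.L, apoa1.S, krt19.L, the cpt1b.L and vdac1.S calls) were chosen after their values were seen. Alternatives were no filter, a filter of log2 1, quantile normalization, centring, the replicate number as block, array weights, fits of both groups alone, no trend and leaving out each array.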

Additional observations from a re-analysis of the deposited data

Results flagged for a closer look

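The effect of T3 at 48 h differed from that at 6 h, both against the shared vehicle arrays, in 36 members (limma test of the difference, which equals T3 48 h against T3 6 h). All 36 differences were negative, where 11.9% of all tested probe sets were called lower and 7.51% higher in that test. On the log2 scale the ribosomal ones were mrps17.L -1.45, mrpl41.S -1.14, mrps24.S -0.97, mrpl9.S -0.94, mrpl3.S -0.88, mrpl15.L -0.81, mrpl2.L -0.77, mrpl53.L -0.76, mrps30.S -0.69, mrpl41.L -0.64, mrpl16.S -0.64, mrpl39.L -0.63, mrps15.L -0.63 and mrpl24.L -0.62. Smaller ones were mrps18a.L -0.61, mrps33.L -0.61, mrpl21.L -0.58, mrps35.L -0.58, mrpl18.L -0.56, mrpl11.S -0.55, mrpl51.L -0.53, mrpl12.L -0.52, mrps2.S -0.52, mrpl44.S -0.49, mrpl48.S -0.49 and mrps26.L -0.45. Import genes among them were timm29.S -1.11, timm10.S -0.89, timm13.L -0.71, timm13.S -0.65 and timm8b.L -0.39. The carriers were slc25a26.L -1.01, slc25a29.L -0.98, slc25a17.S -0.78, slc25a46.S -0.57 and slc25a28.L -0.45. Time in the container differs between these groups together with time in T3, which cannot be told apart here. With 3 arrays per group no search for single outlying arrays was made beyond the first principal component, the liver markers, array weights and the fits without 1 array.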

How the results depend on the processing

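Across the alternatives, none of the 46 calls of named members changed sign; of the comparisons of these calls with the alternatives, 562 kept the call and 181 lost it. The members' median log2 change moved by less than the spread of the per-array medians in every comparison and alternative. At 6 h this says little, because that spread is larger than the median change of 0.13 itself. Across the fits without 1 array the 6 h median was between 0.09 and 0.19. Members called at 48 h against vehicle, 11 in all, were 2 without a filter, 25 (24 lower) with array weights and 5 in a fit of both groups alone. With the replicate number as a block they were 3, and 30 instead of 36 from 6 h to 48 h. Arrays with the same replicate number did not deviate together (r = -0.133 to 0.103 over 9 pairs, against -0.178 to 0.154 over 18 others). Not every array correlated best with its own number, so these values gave no sign that the numbers pair the samples. With 3 arrays per group they cannot exclude a weak pairing. Leaving out 1 array gave 0 to 23 at 48 h against vehicle, 18 to 36 from 6 h to 48 h and 0 to 1 at 6 h. At 6 h, 5 members, all higher, were called with array weights, 1 in a fit of both groups alone and 0 with the block. Over all tested probe sets, calls at 6 h (18) were 2 without a filter, 1 under quantile normalization, 0 with the replicate block, 547 with array weights, 66 in a fit of both groups alone and 0 to 99 without 1 array. At 48 h (892) they were 1979 with array weights, 494 in a fit of both groups alone and 256 to 1912 without 1 array. From 6 h to 48 h (1578) they were 2677 with array weights and 869 to 2093 without 1 array. Under quantile normalization and centring, 57 and 58 of 75 members were positive at 6 h and 66 and 64 negative at 48 h. Values within 0.05 of 0 (mrps35.L, mrpl41.L, a probe set of mrps7.L and tomm40.L at 6 h, slc25a24.S and timm10b.S at 48 h, tomm20 from 6 h to 48 h) changed sign under them or reached 0. Fits without 1 array were not run for members below the filter. The number of arrays, and for values below the array median the background correction, limit the precision.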
